A study of Mus musculus with 123 samples.

Results

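The genes described here encode channels that open on mechanical force or on protons in sensory neurons, together with 2 stomatin proteins that bind such channels. They are Piezo2, Piezo1, Asic1, Asic2, Asic3, Stom and Stoml3. Their rows were taken by symbol from the expression tables of dorsal root ganglion (DRG) neurons, and they are 7 of the 24134 genes listed. PIEZO proteins are large trimeric cation channels that open when the membrane is stretched. PIEZO2 is the main channel of light touch and of the sense of limb position, and PIEZO1 is best known from blood vessels and red cells. ASICs are trimeric sodium channels of the degenerin and epithelial sodium channel family that open when the fluid outside the cell turns acid, and ASIC3 is the member most restricted to sensory neurons. Stomatin binds ASICs and changes their gating, and STOML3 is a relative of stomatin that tunes touch receptors.

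Sciatic nerve transection (SNT) was made on the right side of 2 month old mice, and neurons of the DRGs on that side were compared with neurons from the opposite, intact side of the same animals. Day-3 cells and the pooled libraries came from L5 DRGs of female F1 mice bred from CAST/Eij males and C57BL/6 females. Day-7 cells came from L3 to L5 DRGs of C57BL/6 mice of both sexes. There were 18 control-side and 41 SNT-side cells at day 3, and 14 and 33 at day 7, after 11 day-3 cells had been left out as outliers by the authors. There were 3 pooled libraries on each side, at day 3 only. Strain, sexes used, ganglion level, read length (50 bp at day 3, 75 bp at day 7) and sequencer differed between the days. Values of the 2 days therefore stand side by side without a comparison. Some neurons of the SNT side may have axons that do not run in the sciatic nerve, so that side may also have held neurons without a cut axon.

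Total counts lay between 563462 and 839135 in the pooled control libraries, between 1148849 and 2003817 in the pooled SNT libraries, and between 261351 and 1849130 in the kept cells. The neuronal genes Prph, Avil, Isl1, Tubb3 and Snap25 were each at or above 10 CPM (counts divided by the library total and multiplied by 1e+06) in 106 of 106 kept cells, and Prrxl1 in 72. The pooled libraries of a side are parts of 1 lysate, so their p-values measure only the spread between these parts. The source label describes all 6 pooled libraries as intact, and the sample identifiers pair the sides opposite to the column names. The names were used here, and the opposite pairing would turn the sign of every pooled change. Atf3, a transcription factor switched on by axon injury, was between 8.25 and 21.5 CPM in the 3 libraries named control and between 1372 and 1619 CPM in the 3 named SNT.

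In the pooled neurons at day 3, Asic3, Asic1 and Stom rose on the SNT side, Asic2 fell, and Piezo2 was lower by less than the limit used for a change. Change was called by the quasi-likelihood test of edgeR where the p adjusted by Benjamini-Hochberg was under 0.05 and the log2 change lay beyond 1. Of the 7 genes, 5 had a mean of at least 1 CPM and were tested, and 4 of these 5 were changed, 3 of them higher and 1 lower. Over all 13509 genes tested, 15.9% were changed, 8.83% higher and 7.1% lower. For all 5 tested genes no SNT library overlapped a control library in CPM, which held for 38% of all genes tested.

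Piezo2 was at 472, 516 and 442 CPM in the control libraries and at 217, 238 and 226 CPM in the SNT libraries. The 3 SNT values lay close together and below the lowest control value. The mean was 477 ± 37.3 CPM (SD, n = 3) on the control side and 227 ± 10.3 CPM (SD, n = 3) on the SNT side. The fitted log2 change was -0.92 (SE 0.14, adjusted p = 1.82e-06), 1.89-fold higher in control, so that the p limit was passed and the size limit was not. When libraries were scaled by their totals alone the log2 change was -1.07 and both limits were passed. With that scaling the median over all genes was -0.14 in place of 0.017, and 43.6% of the genes called were higher in place of 55.4%. Piezo1 was near the limit of detection, at 1.40, 0 and 0 CPM in the control libraries and 0, 0.870 and 0.499 CPM in the SNT libraries, which is 1 read in each of the 3 libraries that held any. The 2 sides overlapped and the gene was not tested. In the GENCODE annotation exons of Piezo1 overlap exons of Ctu2 on the opposite strand, and the sources used here do not state whether counting used strand, so these few reads cannot be told apart between the genes.

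The 3 ASIC genes did not move together. Asic3 encodes one of the most proton-sensitive ASICs. It was at 4.13, 17.9 and 16 CPM in the control libraries and at 78.9, 63.5 and 88.8 CPM in the SNT libraries. Each SNT library held more than the highest control library by a wide margin. The log2 change was 2.76 (SE 0.33, adjusted p = 1.17e-08), 6.79-fold higher on the SNT side. Asic1, whose channel is spread through the peripheral and central nervous system, was at 17.9, 1.19 and 5.32 CPM in the control libraries and at 38.9, 47.3 and 51.4 CPM in the SNT libraries. The control libraries spread widely for this gene, with a mean of 8.13 ± 8.69 CPM (SD, n = 3) against 45.9 ± 6.40 CPM (SD, n = 3). Its log2 change was 2.66 (SE 0.43, adjusted p = 5.24e-06), 6.30-fold higher. The size of the Asic1 change rests on the control libraries, since it was 4.09 without control replicate 1 and 2.05 without control replicate 2, with the gene called in both cases. Asic2 forms channels of low proton sensitivity and joins the other subunits in mixed trimers. It was at 61.9, 83.4 and 81.6 CPM in the control libraries and at 16.7, 20.9 and 24.5 CPM in the SNT libraries. The SNT values were all far below the control values, and the log2 change was -1.70 (SE 0.27, adjusted p = 4.84e-06), 3.2-fold higher in control.

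The stomatin genes differed in level. Stom was at 17.9, 11.9 and 17.7 CPM in the control libraries and at 49.6, 52.2 and 50.4 CPM in the SNT libraries. The mean was 15.8 ± 3.4 CPM (SD, n = 3) in control and 50.8 ± 1.33 CPM (SD, n = 3) in SNT libraries, with no overlap. The log2 change was 1.85 (SE 0.32, adjusted p = 1.39e-05), 3.61-fold higher on the SNT side. Stoml3, which is needed for full sensitivity of some touch receptors, was at 0 CPM in all 3 control libraries and at 0.598, 0 and 0 CPM in the SNT libraries, a single read. It was not tested. In these pools fewer neurons of a type and less RNA per neuron cannot be told apart.

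**Figure D1:**
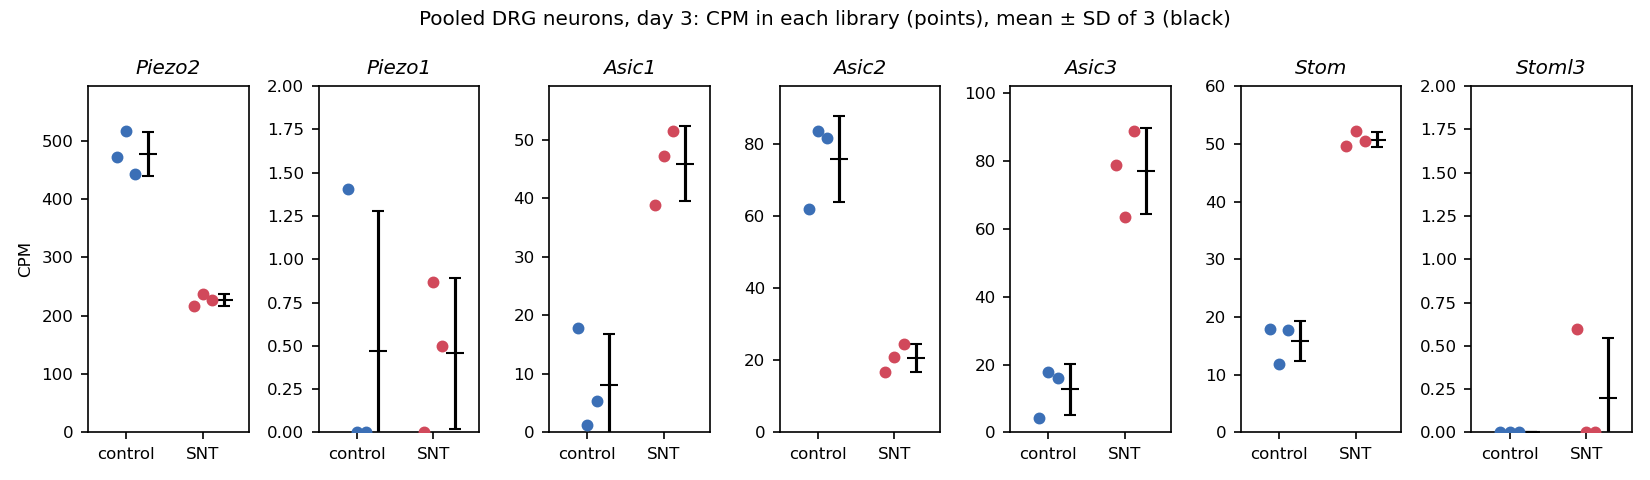
CPM of the 7 genes in pooled DRG neurons at day 3. Each point is 1 of 3 libraries of the control side (blue) or of the SNT side (red), and the black bar is the mean ± SD of the 3, on a linear axis from 0 that differs between panels. Asic1, Asic3 and Stom lie higher and Piezo2 and Asic2 lower on the SNT side with no overlap, and Piezo1 and Stoml3 stay at or below 1.40 CPM.

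Read per kilobase of the longest annotated transcript, so that genes of different length can be set beside each other, the order of the genes differed between the 2 sides of the pools. On the control side Piezo2 was highest at 44.4 ± 3.5 CPM per kb (SD, n = 3), followed by Asic2 at 22 ± 3.5, Asic3 at 6.83 ± 4.02, Stom at 5.69 ± 1.22 and Asic1 at 1.98 ± 2.11. The ranges of Asic3 and Stom overlapped there, as did those of Stom and Asic1. On the SNT side Asic3 was highest at 41.6 ± 6.88 CPM per kb (SD, n = 3), followed by Piezo2 at 21.2 ± 0.964, Stom at 18.2 ± 0.479, Asic1 at 11.1 ± 1.56 and Asic2 at 6.02 ± 1.12. No neighbours among these 5 overlapped on the SNT side. Piezo1 and Stoml3 were last on both sides, at or below 0.112 CPM per kb on average.

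The 250 bases before the annotated start were read for the 3 genes that rose in the pools. How alike these sequences are was not measured. They come from RefSeq on the build GRCm38.p6, where 6 of the 7 genes have an entry. The windows are chr5:24413201-24413450 on the plus strand for Asic3, chr15:99691974-99692223 on the plus strand for Asic1 and chr2:35337010-35337259 on the minus strand for Stom. Capitals mark matches on either strand to 4 motifs that were searched, AP-1 (TGANTCA), CRE (TGACGTCA), the GC box (GGGCGG) and the CCAAT box (CCAAT). Of the 32851 windows in the table, 6.75% hold AP-1, 1.55% CRE, 32.7% a GC box and 33.9% a CCAAT box.
Asic3: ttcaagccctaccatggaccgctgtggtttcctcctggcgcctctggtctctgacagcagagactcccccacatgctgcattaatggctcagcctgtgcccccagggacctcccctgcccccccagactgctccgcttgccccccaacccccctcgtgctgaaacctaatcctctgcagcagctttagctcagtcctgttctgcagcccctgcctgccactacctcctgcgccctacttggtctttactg
Asic1: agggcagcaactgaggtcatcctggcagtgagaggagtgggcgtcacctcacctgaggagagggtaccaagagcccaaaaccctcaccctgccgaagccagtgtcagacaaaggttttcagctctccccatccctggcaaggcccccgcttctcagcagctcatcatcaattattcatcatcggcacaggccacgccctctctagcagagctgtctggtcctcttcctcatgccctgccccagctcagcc
Stom: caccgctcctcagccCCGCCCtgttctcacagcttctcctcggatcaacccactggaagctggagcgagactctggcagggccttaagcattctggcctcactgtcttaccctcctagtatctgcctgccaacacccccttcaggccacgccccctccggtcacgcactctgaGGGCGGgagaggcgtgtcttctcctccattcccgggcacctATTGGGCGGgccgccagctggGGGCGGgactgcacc
The Stom window holds 4 GC boxes, which begin 235, 77, 33 and 15 bases before the start, and a CCAAT box that begins 36 bases before it and shares bases with the GC box at 33. The Asic3 and Asic1 windows hold none of the 4 motifs. Asic2, which fell, has 2 start sites in the table, and none of its windows holds AP-1, CRE or a GC box. Its window at chr11:81968397-81968646 holds a CCAAT box that begins 93 bases before the start. A match is only a run of letters, and the lack of one says nothing about other windows or other motifs.

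Other genes of mechanical and acid sensing, and of proteins that bind these channels, were read from 6 lists with 39 genes. Of the 26 that were tested, 4 rose, 5 fell and 17 were not changed, with a median log2 change of -0.076 against 0.017 over all genes. That is 9 of 26 beside 15.9% of all genes, and the 2 directions were nearly balanced.

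Among receptors of nociceptors, Trpv1 and Trpa1 fell in the pools. In day-3 cells the mean of Trpv1 was nearly equal, 74 CPM in control-side and 73.9 CPM in SNT-side cells. Trpv1, the capsaicin receptor, which also opens on protons, was at 176, 182 and 172 CPM in the control libraries and 15.5, 16.5 and 24.5 CPM in the SNT libraries (log2 change -3.04, SE 0.23, adjusted p = 5.55e-14). Trpa1, a receptor for irritants that has been linked to mechanical pain, was at 209, 280.1 and 234 CPM against 29.3, 44.4 and 27.4 CPM (log2 change -2.72, SE 0.21, adjusted p = 7.80e-14). Both genes had SNT libraries far below any control library. Tmem206, which encodes a chloride channel opened by protons, was at 31, 29 and 36.8 CPM against 55.3, 48.6 and 62.9 CPM, with a log2 change of 0.96 that stayed inside the size limit.

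Among other candidate channels of mechanical force, 2 of the 10 tested rose and 2 fell. Of the TMEM63 genes, whose proteins are relatives of the stretch-gated OSCA channels of plants, Tmem63a fell from 41.3, 72.7 and 60.4 CPM to 9.56, 13.1 and 14 CPM (log2 change -2.09, SE 0.32), and Tmem63c rose from 100.4, 122 and 122 CPM to 213, 251 and 209.6 CPM (log2 change 1.12, SE 0.17). Tmem63b was at 239 to 261 CPM in control and 212 to 218 CPM in SNT libraries, with a log2 change of -0.047. Kcnk10, a potassium channel that membrane stretch opens, rose from 9.63, 13.1 and 7.1 CPM to 28.1, 24.4 and 23 CPM (log2 change 1.45, SE 0.40). With scaling by library totals alone the Tmem63c change was 0.97, inside the size limit. The adjusted p-values of these 4 genes were 2.51e-06 for Tmem63a, 1.65e-06 for Tmem63c, 0.861 for Tmem63b and 0.00623 for Kcnk10.

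Of the proteins known to bind ASICs, 1 of 5 rose and 1 fell. S100a10, whose protein carries ASIC1 and sodium channels to the membrane, was at 682, 776 and 569.9 CPM in the control libraries and 1654, 1545 and 1918 CPM in the SNT libraries (log2 change 1.49, SE 0.13, adjusted p = 2.36e-12). Slc9a3r1, which encodes a scaffold that binds ASIC3, was at 55.0, 55.8 and 37.3 CPM against 8.97, 12.2 and 22.1 CPM (log2 change -1.59, SE 0.34, adjusted p = 0.000307). None of the 4 tested genes for proteins that bind PIEZO channels was called by edgeR or by DESeq2, with 2 of them under an unadjusted p of 0.05. The nearest was Anxa6, an annexin reported to restrain mechanical currents, with a log2 change of 0.69 and an adjusted p of 2.13e-05. Neither Stoml1 nor Stoml2 was called by edgeR or DESeq2, and 1 of them was under an unadjusted p of 0.05. Stoml1 was at 147 to 153 CPM in control and 147 to 163 CPM in SNT libraries. Stoml2 was at 86.6, 73.9 and 110.0 CPM against 67.6, 67.9 and 33.5 CPM without overlap, with a log2 change of -0.53 and an adjusted p of 0.112. Scnn1b, an epithelial sodium channel subunit, had 0 reads in control and 19 in SNT libraries, at least 2.80-fold higher with 3 reads over the control side as the floor (adjusted p = 0.0278). Its call was lost without control replicate 1, 2 or 3, without SNT replicate 3, with a block for the library number and with DESeq2, at adjusted p-values between 0.0633 and 0.112.

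**Figure D2:**
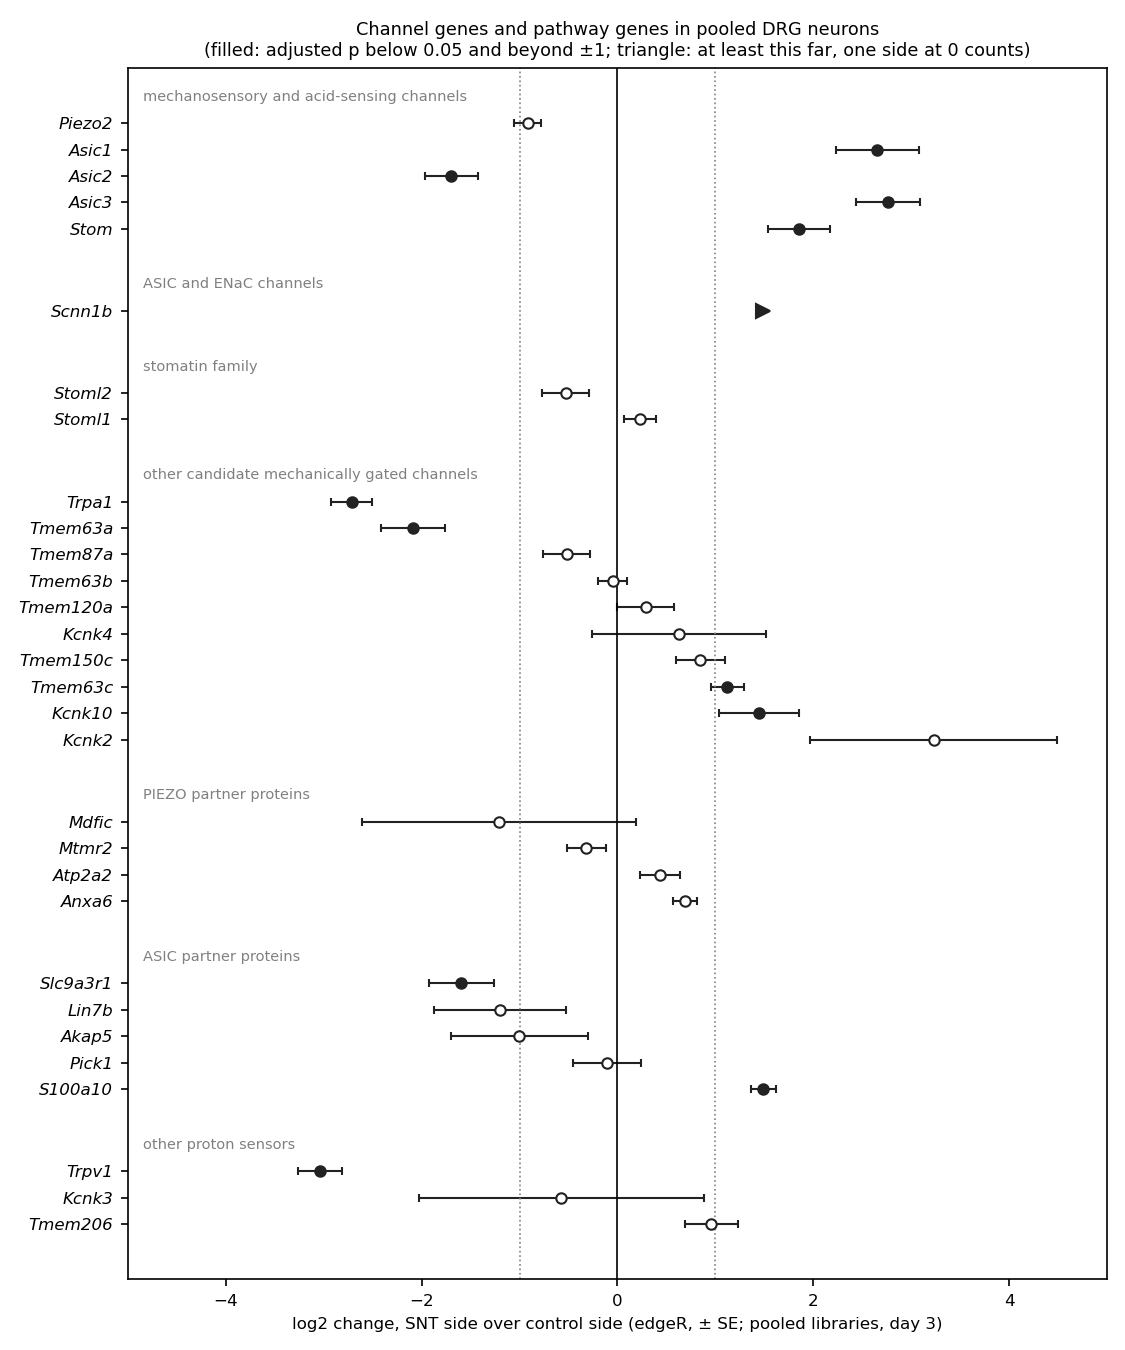
Log2 change of the SNT side over the control in pooled neurons, fitted by edgeR with its SE, for the 5 tested channel genes and the reported tested genes of the 6 lists. Filled circles passed both limits, open circles did not, dotted lines mark a log2 change of 1 in either direction, and the triangle marks the least change of Scnn1b that 3 reads over the side at 0 allow. Asic1, Asic3 and Stom lie beyond 1 on the right with Tmem63c, Kcnk10 and S100a10, and Asic2 lies beyond 1 on the left with Trpa1, Trpv1, Tmem63a and Slc9a3r1.

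Markers of the neuron types moved between the pools beside these changes. Nonpeptidergic nociceptor markers were lower on the SNT side in 4 of 4 cases, with Mrgprd at 938 to 1074 CPM in control and 0 to 2.61 CPM in SNT libraries. All 3 C-LTMR markers fell, with Th at 276 to 429 CPM against 52.0 to 85.3 CPM. Of the 4 large myelinated markers 2 were called, both higher. Nefh was at 303 to 334 CPM against 597 to 686 CPM and Ntrk3 at 15.1 to 37.3 CPM against 55.7 to 66.9 CPM. Ntrk2 went the other way without overlap, at 229 to 285 CPM against 129 to 142 CPM. Its log2 change of -0.78 stayed inside the size limit (edgeR adjusted p = 0.000219). Pvalb was low, at 3.55 to 5.96 CPM against 7.98 to 14.9 CPM, and was not called. The part of the makeup of the pools in the changes of Asic1, Asic2, Asic3 and Stom was not tested. The 10 glial markers summed to between 3441 and 3727 CPM in the control pools and between 2689 and 2768 CPM in the SNT pools. The 6 endothelial markers summed to 27.5 to 31 CPM against 54.8 to 92.8 CPM, with 3 of the 6 at 0 on the control side and most of both sums from Egfl7 (21.3 to 28.6 against 47 to 82.8 CPM). Summed erythrocyte markers (5 genes) stayed at or below 12.5 CPM, summed immune markers (8 genes, Ptprc and Itgam at 0 in all 6 libraries) at or below 8.97 CPM and summed fibroblast markers (6 genes) at or below 85.3 CPM, and the part of these cells was not tested.

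In single cells at day 3, Piezo2 and Asic2 were lower and Stom was higher on the SNT side, as in the pools, while the means of Asic1 and Asic3 were lower rather than higher. The labels name no animal, so each side of a day counts as 1 sample and ratios have no test. Intervals of shares cover the drawing of cells, taken as independent. Intervals of sums cover counting error, and neither kind covers the spread between animals. Of the 5 genes that reached a mean of 10 CPM on a side, Piezo2, Asic2 and Asic3 were more than 2-fold lower and Stom was more than 2-fold higher. Over 9736 genes at that level, 11.9% were past 2-fold, 5.82% higher and 6.07% lower. Of the 19 genes of the 6 lists at that level, 16 were within 2-fold. The other 3 were lower, Trpa1 and Tmem63a among them. Trpv1 had a log2 ratio of -0.0013 and Slc9a3r1 of -0.23, although both were called lower in the pools.

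Piezo2 was found in all 18 control-side cells at 10 CPM or more, from 106 to 1586 CPM with a median of 432 CPM. In the 41 SNT-side cells it ran from 0.759 to 789.7 CPM with a median of 141 CPM, and 38 were at or above 10 CPM (92.7%, exact binomial 95% interval 80.1 to 98.5%). Of these 41 cells, 14 lay below the lowest control-side cell and 37 below the control-side median. The mean was 578 ± 420 CPM (SD, n = 18 cells) against 195 ± 176 CPM (SD, n = 41 cells), a log2 ratio of -1.56 on the scale of CPM + 1. Summed over cells the gene held 9856 counts in control-side cells, or 638 CPM (exact Poisson 95% interval 626 to 651), and 9167 counts in SNT-side cells, or 177 CPM (173 to 180.2). The 4 control-side cells left out as outliers were lower than every kept control-side cell, at 27 to 51.6 CPM, and with all cells included the log2 ratio was -1.36. Piezo1 was at 0 in 13 of 18 control-side and 26 of 41 SNT-side cells, and 1 SNT-side cell at 45.7 CPM held 55.7% of the sum of its side.

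Asic2 was widespread at low level. It was at or above 10 CPM in 17 of 18 control-side cells (94.4%, interval 72.7 to 99.9%) and in 32 of 41 SNT-side cells (78.0%, 62.4 to 89.4%). It ran from 9.15 to 164 CPM with a median of 37.3 CPM in the former and from 0 to 98.1 CPM with a median of 20.9 CPM in the latter, so the 2 sides overlapped over most of their range. The mean was 64.6 ± 52.9 CPM (SD, n = 18 cells) against 28.1 ± 22.5 CPM (SD, n = 41 cells), a log2 ratio of -1.17. With medians in place of means it was -0.81, inside 2-fold. After each cell was thinned to 250000 counts, 18 of 18 and 38 of 41 cells (92.7%) held a count. The part of depth in the ratio was not tested, with median totals of 862619 counts in control-side and 1323932 counts in SNT-side cells.

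Asic1 and Asic3 reached 10 CPM in a minority of day-3 cells. Over all cells the median of Asic1 was 4.37 CPM on the control side and 1.23 CPM on the SNT side. Asic3 was at or above 10 CPM in 7 of 18 control-side cells (38.9%, interval 17.3 to 64.3%) and in 14 of 41 SNT-side cells (34.1%, 20.1 to 50.6%), intervals that overlap widely. In the cells at or above 10 CPM it ran from 11.7 to 584 CPM with a median of 330.3 CPM on the control side and from 20.5 to 296 CPM with a median of 148 CPM on the SNT side. Over all cells the mean was 106 ± 182 CPM (SD, n = 18 cells) against 50.6 ± 87.7 CPM (SD, n = 41 cells), a log2 ratio of -1.06. This ratio was -0.22 with counts summed over cells and -0.85 with outlier cells included, inside 2-fold both times. Medians give no ratio, since both are 0. The 5 highest control-side cells held 93.4% of the sum of their side. Asic1 was at or above 10 CPM in 8 of 18 control-side cells (44.4%, interval 21.5 to 69.2%) and in 13 of 41 SNT-side cells (31.7%, 18.1 to 48.1%). Its mean was 42.4 ± 70.3 CPM (SD, n = 18 cells) against 30.3 ± 55.4 CPM (SD, n = 41 cells), a log2 ratio of -0.47 that turned to 0.19 with summed counts. In the cells at or above 10 CPM its mean was nearly equal, 94.3 ± 80.3 CPM (SD, n = 8 cells) and 93.5 ± 62.2 CPM (SD, n = 13 cells).

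Stom showed the widest ratio of the genes. In the 18 control-side cells it ran from 0 to 102 CPM with a median of 7.02 CPM, and in the 41 SNT-side cells from 0 to 550.0 CPM with a median of 23.5 CPM. Of the SNT-side cells, 13 were above the highest control-side cell and 16 were below the control-side median, so the higher mean came from part of the cells. The mean was 16.2 ± 24.5 CPM (SD, n = 18 cells) against 112 ± 165 CPM (SD, n = 41 cells), a log2 ratio of 2.71. The share of cells at or above 10 CPM was 44.4% (8 cells, interval 21.5 to 69.2%) against 61.0% (25 cells, 44.5 to 75.8%). Among those cells the median was 23 CPM on the control side and 119 CPM on the SNT side. The 5 highest SNT-side cells held 51.4% of the sum of their side. With medians in place of means the log2 ratio was 1.61. Stoml3 was at 0 in 16 of 18 and 38 of 41 cells, and no cell reached 10 CPM.

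**Figure D3:**
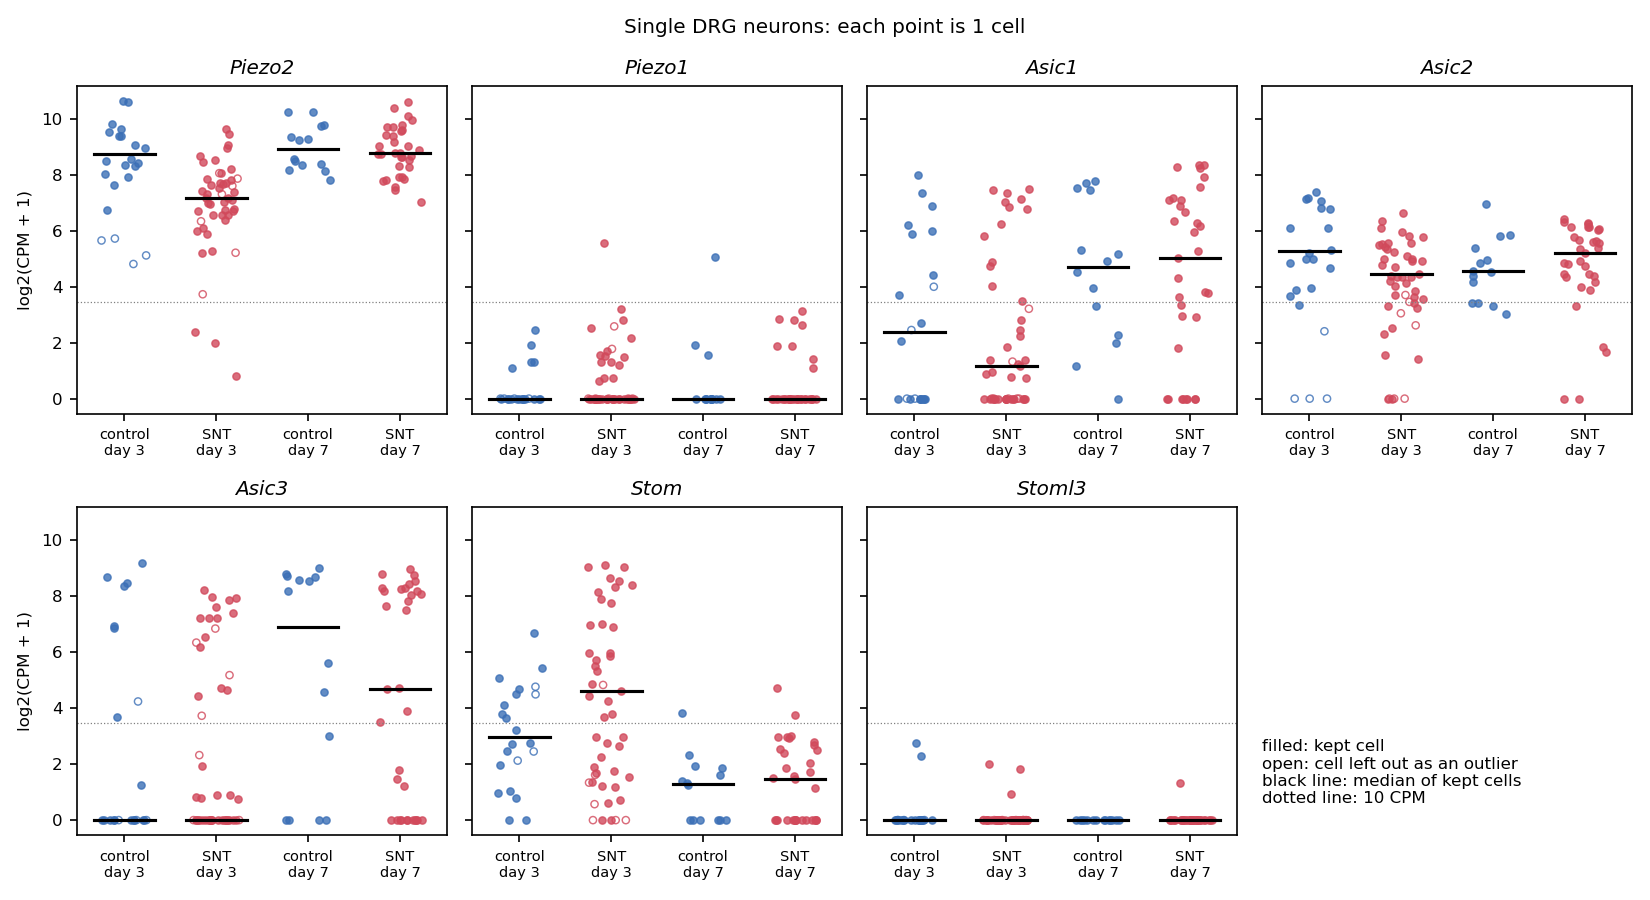
Level of the 7 genes in single DRG neurons on the scale of log2(CPM + 1), 1 point per cell, control side in blue and SNT side in red, at day 3 and day 7. Open points are cells that the authors left out as outliers, black lines are medians of the kept cells and the dotted line is 10 CPM. Piezo2 lies lower in day-3 SNT-side cells and Stom reaches higher there. Asic1 and Asic3 are spread from cells at 0 to cells far above 10 CPM, and Piezo1 and Stoml3 are at 0 in most cells.

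At day 7 none of the 4 genes that reached a mean of 10 CPM on a side was past a 2-fold ratio of means between the sides, beside 7.66% of 9622 genes (4.45% higher and 3.2% lower). Atf3 had a median of 9.19 CPM in the 33 SNT-side cells, and 12 of them were above the highest control-side cell. At day 3 this held for 30 of 41 SNT-side cells. The part of SNT-side cells low in Atf3 in the day-7 ratios was not tested. Piezo2 was at or above 10 CPM in 14 of 14 control-side and 33 of 33 SNT-side cells. It ran from 224 to 1218 CPM with a median of 491 CPM in the former and from 129.5 to 1556 CPM with a median of 432 CPM in the latter. The mean was 584 ± 338 CPM (SD, n = 14 cells) and 545 ± 341 CPM (SD, n = 33 cells), a log2 ratio of -0.099 that is small beside the spread of cells. In female cells alone the log2 ratio was -0.17 and in male cells -0.015. Asic2 had a mean of 32.2 ± 30.8 CPM (SD, n = 14 cells) against 38.2 ± 25.7 CPM (SD, n = 33 cells), a log2 ratio of 0.24. Asic1 was at or above 10 CPM in 9 of 14 control-side cells (64.3%, interval 35.1 to 87.2%) and 21 of 33 SNT-side cells (63.6%, 45.1 to 79.6%). Its mean was 67.0 ± 85.8 CPM (SD, n = 14 cells) against 83.2 ± 106 CPM (SD, n = 33 cells), a log2 ratio of 0.31.

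Asic3 at day 7 differed between the labelled sexes in its ratio. Over both sexes the mean was 208 ± 210.4 CPM (SD, n = 14 cells) on the control side and 146 ± 169 CPM (SD, n = 33 cells) on the SNT side, a log2 ratio of -0.51. The medians were 167 and 24.4 CPM, a log2 ratio of -2.73 that is past 2-fold, with 9 of 14 (64.3%) and 19 of 33 cells (57.6%, interval 39.2 to 74.5%) at or above 10 CPM. In female cells the mean was 195 CPM in 7 control-side and 45.6 CPM in 16 SNT-side cells, a log2 ratio of -2.07. In male cells it was 221 CPM in 7 control-side and 241 CPM in 17 SNT-side cells, a log2 ratio of 0.12. The difference between the sexes was not tested, since the labels name no animal. Stom was low at day 7 on both sides, with a mean of 2.10 ± 3.5 CPM (SD, n = 14 cells) and 3.2 ± 5.07 CPM (SD, n = 33 cells), with 1 and 2 cells at or above 10 CPM. The neuron types picked also differed between days, with Nefh at a median of 91.2 CPM in control-side cells at day 3 and 2640.1 CPM in those at day 7, and P2rx3 at 699 and 13.9 CPM.

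The genes followed different neuron markers across cells of 1 side and day. These Spearman correlations are descriptions over few cells that share libraries, depth and the choice of cells for picking. Across the 18 control-side cells of day 3, Asic2 was high where Nefh, the heavy neurofilament of large myelinated neurons, was low (rho = -0.85), and Asic3 was high where Nefh was high (rho = 0.80). Asic2 and Asic3 were themselves opposed in these cells (rho = -0.77). Piezo2 went with Fam19a4 (rho = 0.81), a marker of low-threshold C fibres, and with P2rx3 (rho = 0.74), the ATP receptor of nonpeptidergic nociceptors, and against Nefh (rho = -0.70). Asic1 was low where Scn11a, a nociceptor sodium channel, was high (rho = -0.72). Asic3 also went against the total count of the cell (rho = -0.74), so its link with Nefh stands beside a link with depth, whose part was not tested.

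Across the 41 SNT-side cells of day 3, Stom was high in cells with P2rx3 (rho = 0.77) and low in cells with Nefh (rho = -0.76) or with Snap25, a synaptic vesicle fusion protein (rho = -0.78). At 10 CPM or more, 22 of the 25 Stom cells also held P2rx3, beside 27 of all 41 cells, and 4 also held Asic1. Asic3 had the same sign with Nefh (rho = 0.51), while Nefh was at or above 10 CPM in 40 of the 41 cells. Stom and Asic3 were opposed (rho = -0.69), and 3 cells held both. Asic1 was low where P2rx3 was high (rho = -0.66) and high with Pvalb, a marker of proprioceptors (rho = 0.59). Stom was also opposed to the summed endothelial markers (rho = -0.68), which Asic3 followed (rho = 0.71). That sum is almost Egfl7 alone, at a mean of 32.6 CPM of 33.5 CPM in these cells. The part of this gene in these values was not tested.

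Piezo2 was lower in SNT-side cells with more Atf3 (rho = -0.51 over 41 cells). The cells fell into 2 groups along Atf3, with 11 cells at or below 23 CPM and 30 at or above 951 CPM. Within these groups the correlation was 0.15 and -0.28, so it rests mostly on the step between them. For Asic2 the value was -0.37 over all 41 cells and 0.0024 within the 30 cells. For Stom it was 0.22 over all and 0.30 within the 30 cells, and for Asic3 -0.16 and -0.47.

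**Figure D4:**
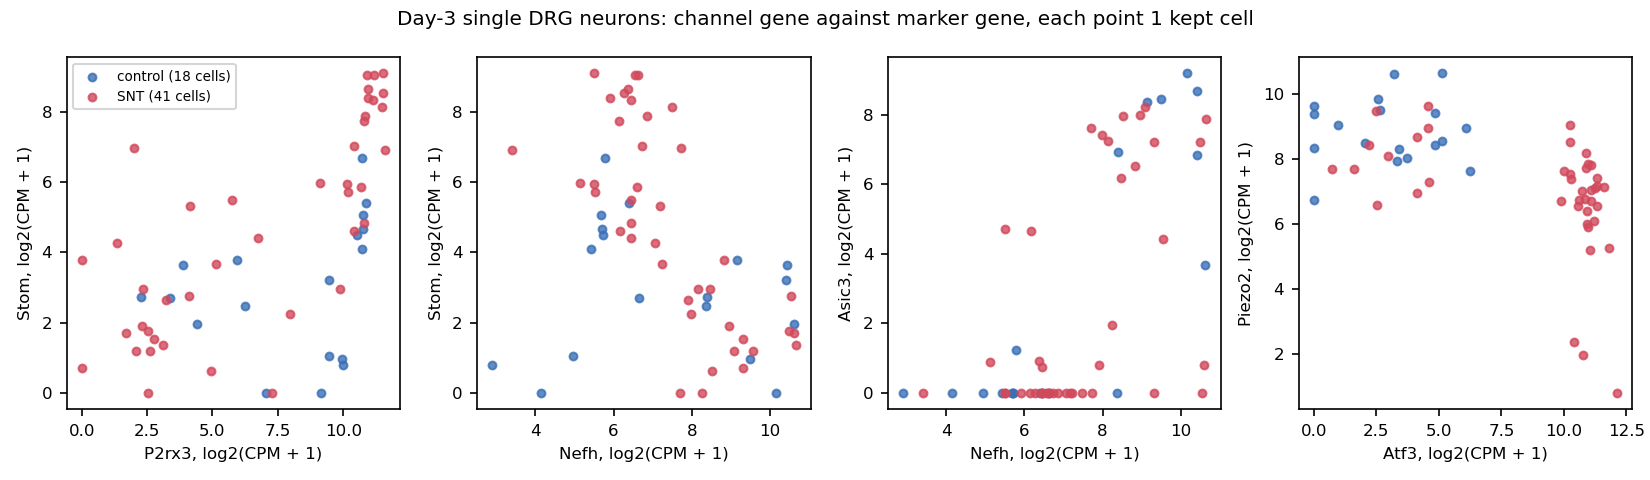
Levels of Stom, Asic3 and Piezo2 against marker genes in kept day-3 cells, on the scale of log2(CPM + 1), with 18 control-side cells in blue and 41 SNT-side cells in red. Stom rises with P2rx3 and declines with Nefh in the SNT-side cells, the Asic3 cells lie mostly on the right of the Nefh axis, and Piezo2 is lower in the SNT-side cells beyond the gap in Atf3 between 23 and 951 CPM.

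At day 7 other markers led. Across the 33 SNT-side cells Asic3 went with the peptidergic marker Calca (rho = 0.74), with a value of 0.67 in the 14 control-side cells, while its correlation with Nefh was -0.098. Of the 13 SNT-side cells with Calca at 10 CPM or more, 12 held Asic3, beside 19 of all 33 cells. Asic1 went with Pvalb (rho = 0.79) in the SNT-side cells, and in the 14 control-side cells with Asic3 (rho = 0.79). Asic3 of the SNT-side cells also followed the summed glial markers (rho = 0.70), whose part was not tested. For Piezo2 the value with Fam19a4 was 0.51 in the control-side and 0.027 in the SNT-side cells.

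**Figure D5:**
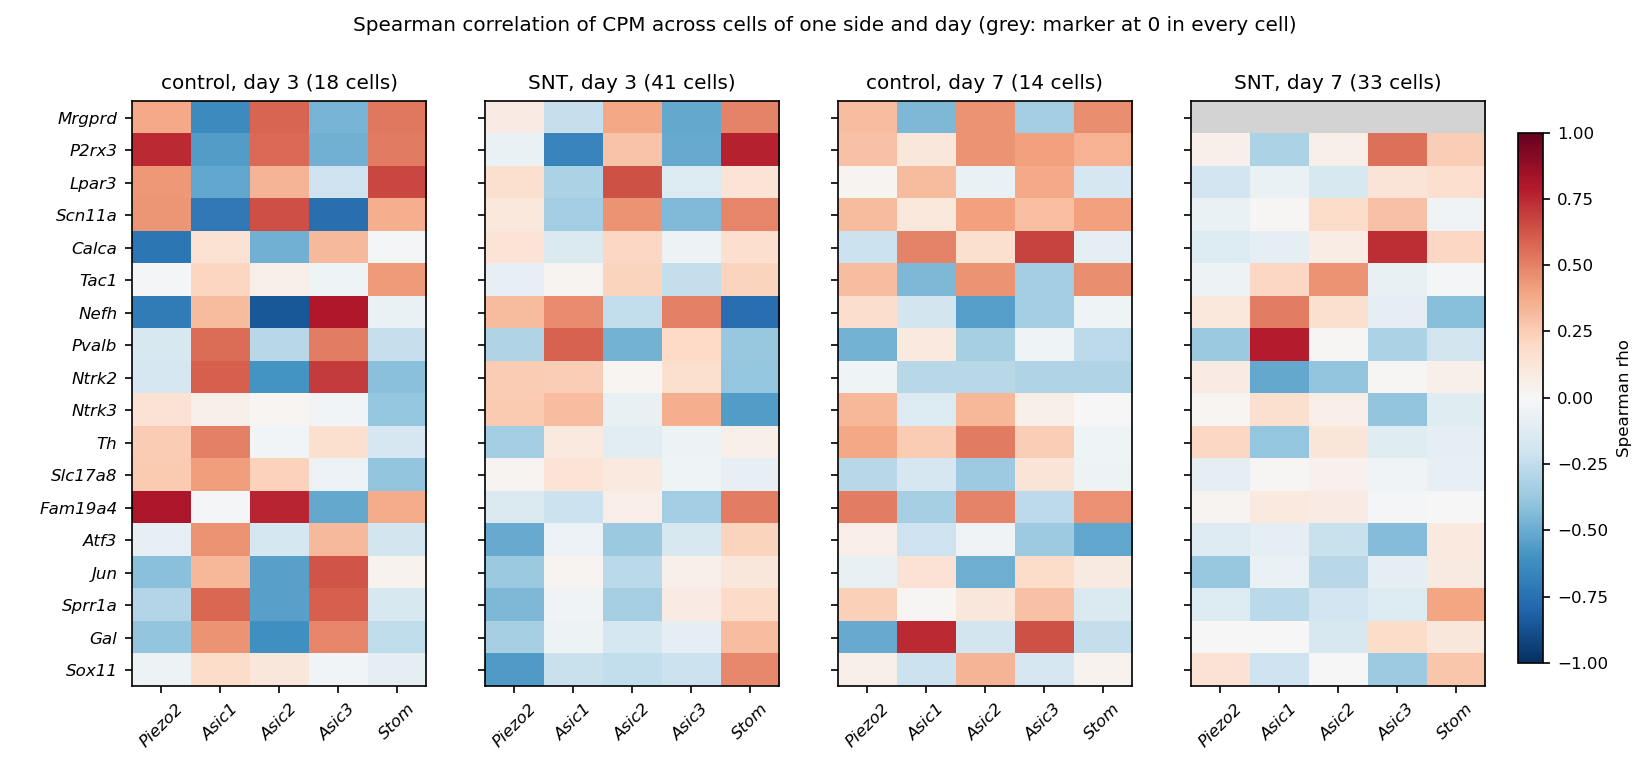
Spearman correlation of CPM between the 5 more abundant channel genes and the markers of neuron types and injury, across the cells of each side and day. Red is positive and blue negative, and grey marks Mrgprd, which is 0 in all 33 SNT-side cells of day 7. Asic2 and Asic3 have opposite colours against Nefh in day-3 control-side cells, Stom is red against P2rx3 and blue against Nefh in day-3 SNT-side cells, and Asic3 is red against Calca at day 7.

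The 59 kept day-3 cells had 9277 genes at a mean of 10 CPM or more. Those whose levels were most like Piezo2 were Dpp6 (rho = 0.82), Hecw1 (0.80) and Tln2 (0.78). Those nearest to Asic2 were Dapk1 (0.76), Pfkl (0.72) and Nlgn3 (0.72), and those nearest to Stom were Ptma (0.80), Sdc3 (0.78) and Carhsp1 (0.77). Asic3 was nearest to Abcg2 (0.80), Camk1d (0.76) and Fbxo2 (0.75), and Asic1 to Paqr7 (0.65), Pappa (0.63) and Pcdh10 (0.62). These values mix cells of both sides. Over the 47 day-7 cells the correlation of Asic3 with Abcg2 was 0.73, while that of Piezo2 with Dpp6 was -0.22 and that of Asic2 with Dapk1 was 0.015.

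The combination of genes in a cell also varied. With 10 CPM as the limit, 11 of 18 control-side and 26 of 41 SNT-side cells of day 3 held 3 of the 7 genes, and 1 cell on each side held 5. Asic1 and Asic3 shared 5 control-side cells and 7 SNT-side cells at day 3, which is 71.4% and 50.0% of the cells with Asic3 and 62.5% and 53.8% of those with Asic1. At day 7 they shared 8 and 13 cells, which is 88.9% and 68.4% of the cells with Asic3.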

How the data were processed

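Single DRG neurons were hand-picked and amplified by Smart-seq2, and pooled neurons of each side were split into 3 libraries. Per the labels and the study's methods, the authors used CASAVA 1.8.2, Bowtie2 and RSEM on mm9. The deposited values are RSEM expected counts per gene, although the tables are named for another unit, and between 60.7% and 93.6% of those above 0 are whole in a library. They were scaled to CPM for description and rounded for tests. The authors had left out 11 day-3 cells as outliers.

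Pooled sides were compared with edgeR 4.0.16 in R 4.3.3 (TMM, quasi-likelihood test, genes at a mean of 1 CPM or more, prior count 0.125), which was tested on simulated data, with DESeq2 1.42.0 and limma 3.58.1 as alternatives. Same-numbered pooled libraries did not deviate together (r between -0.0145 and 0.0685), so numbers do not pair them. Replicates differed beyond sampling noise (chi-square per gene 2.48 to 3.93). Cells were compared as 1 sample per side, with ratios of mean CPM + 1 and exact 95% intervals (Clopper-Pearson for shares, Poisson for sums). The former cover the drawing of cells, taken as independent, the latter counting error, and neither covers the spread between animals. Python 3.11.15 and scipy 1.17.1 were used. Lengths came from GENCODE M21 and upstream windows from RefSeq, both on GRCm38.

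Named were the 7 channel genes, list genes changed in the pools, markers, and the 3 genes closest to each channel gene across day-3 cells. Anxa6, Tmem63b, Tmem206, Stoml1 and Stoml2 were added after their values were seen. The genes and lists were chosen with earlier results of these data known. Some list and marker genes are not reported here.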

Additional observations from a re-analysis of the deposited data

Results flagged for a closer look

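Asic2 had a log2 ratio of -1.17 between the sides in day-3 cells and of 0.24 in day-7 cells, so the ratios had opposite signs. The difference was not tested. Strain, sexes used, ganglion level, read length and the neuron types picked differ between the days and cannot be told apart from time.

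Asic3 at day 7 had a log2 ratio of -2.07 in female cells and of 0.12 in male cells. This difference was not tested either, since the labels name no animal.

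In 1 of the 7 SNT-side cells left out as outliers Piezo1 was at 4.98 CPM, above the highest kept control-side cell of day 3 at 4.53 CPM.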

How the results depend on the processing

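The count of changed channel genes in the pools was 4 with each library left out in turn (4 to 4), with the other filters, priors and tools, and with a block for the library number. It was 5 with scaling by library totals alone, where Piezo2 was called. With the replicate block 4 channel genes, 8 list genes and 2008 genes in all were changed. The samples share only a number, and the block changed no call of a channel gene. Leaving out a library gave 9 to 10 list genes and 1884 to 2148 genes in all. Log2 changes then ran from -0.96 to -0.85 for Piezo2, from 2.05 to 4.09 for Asic1, from -1.86 to -1.54 for Asic2, from 2.33 to 3.2 for Asic3 and from 1.66 to 1.96 for Stom. DESeq2 called 1761 genes. At day 7 the count past 2-fold was 1 in place of 0 with median CPM and 1 with female cells, in each case Asic3, and the cause was not tested. No direction reversed among called values. Of 56 shares of cells under another limit or after thinning, 21 moved beyond their interval. No animal is named for the cells, so their ratios have no test.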
